A study of Mus musculus with 6 samples.

Results

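The genes described here are 10 markers and drivers of cell division in mouse liver, Mki67, Top2a, Cdk1, Ccna2, Ccnb1, Ccnd1, Ccne2, Mcm2, Mcm6 and Pcna. They were chosen by symbol, and 10 of the 46095 symbols of the expression table matched. RNA-seq had been done on 6 libraries from C57BL/6 mice, 3 wild type and 3 knocked out for ARRB1 (beta-arrestin 1, which binds activated G protein-coupled receptors). Both groups had been fed a high-fat diet for 26 weeks, so the diet itself was not compared. The sample labels give liver as the source and hepatocyte as the cell type. The titles of all 3 knockout libraries name ARRB1, while the genotype label names ARRB2-/- for knockout replicate 2 and ARRB3-/- for knockout replicate 3. Libraries were grouped by title. The sources used here do not give the sex or age of the mice or the cells in which the gene was deleted.

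Cells enter the division cycle when growth signals raise D-type cyclins, which with their kinases inactivate the retinoblastoma protein and free E2F factors to switch on genes of DNA replication. Cyclins E and A carry the cell through S phase, in which the MCM helicase opens the DNA and PCNA clamps the polymerases to it, and cyclin B with CDK1 starts mitosis. Adult hepatocytes are mostly quiescent and divide after injury or loss of tissue, whereas immune cells that enter an inflamed liver can also divide, so that a bulk liver sample holds cycle genes of several cell types. In bulk samples, fewer cells of a type and less RNA per cell cannot be told apart.

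Values are FPKM (fragments scaled to gene length and library size). Depth was inferred from the steps of the FPKM values as 27910000 to 33320000 fragments in wild type and 13910000 to 35060000 fragments in the knockout libraries, where replicate 2 was the deepest of all 6 and replicate 1 the shallowest. Arrb1 (chromosome 7, 99535466 to 99606771, GRCm38) was at 3.86 to 22.7 FPKM in wild type and 0.918 to 1.16 FPKM in knockout, low in all 3 libraries labelled knockout. The hepatocyte marker Alb, the serum albumin gene, was at 27740 to 35463 FPKM in the 6 libraries. Markers of other cells were also present, such as the macrophage gene Cd5l at 66.0 to 91.7 FPKM and the mesenchymal gene Dcn at 69.9 to 110 FPKM, so the libraries were not of hepatocytes alone. Knockout replicate 2 stood apart from the other libraries in part of what follows, and results are given with and without it.

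The level of the 10 genes set how well each could be measured. Per gene length, Pcna (mean of the 6 libraries 18.7 FPKM) and Ccnd1 (12.4 FPKM) were the most abundant, followed by Mcm2 (2.10 FPKM) and Mcm6 (1.80 FPKM). The ranges of Mcm2 and Mcm6 over the libraries overlapped, so their order is not resolved. Top2a (0.650 FPKM), Cdk1 (0.452 FPKM), Ccna2 (0.413 FPKM), Ccne2 (0.342 FPKM), Ccnb1 (0.302 FPKM) and Mki67 (mean 0.2975 FPKM) were below 1 FPKM, with overlapping ranges. Whole reads could be recovered from the FPKM steps, and these 6 genes rested on 2 to 284 reads per library, against 90 to 3023 for the other 4. Only those 4 passed the filter at a mean of 1 FPKM for the main test, limma on log2(FPKM + 1) with Benjamini-Hochberg adjustment. All 10 passed a lower filter at 0.1 FPKM, at which limma's voom was run on the recovered reads.

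The gene with the largest ratio between the groups was that of cyclin D1, Ccnd1, at 2.25 times its wild-type mean in the knockout. Mki67, Top2a, Cdk1, Ccna2 and Ccnb1, which act from S phase to mitosis, were each highest in 1 knockout library, replicate 2. Without that library their ratios of means, knockout over wild type, ran from 0.392 for Ccnb1 to 1.435 for Top2a. The replication genes Mcm2, Mcm6 and Pcna lay on both sides of wild type. No member was called at an adjusted p under 0.05 by the main test, 0 of the 4 tested, with 2 of the 4 at an unadjusted p under 0.05. Of all 10633 genes tested, 6.9% were called, 5.3% higher and 1.6% lower in the knockout, and 25.3% had an unadjusted p under 0.05. Voom on the reads called 1 of the 10 members, Ccnd1, as higher, against 5.68% of the 14906 genes tested in that way called higher and 1.42% called lower. The knockout and wild-type libraries did not overlap for 3 of the 10 members, with Cdk1 and Ccnd1 higher and Pcna lower in every knockout library. Of all genes that averaged 0.1 FPKM or more, 19.9% lay higher without overlap and 7.31% lower, so 2 and 1 of 10 are near the share of all genes.

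**Figure D1:**
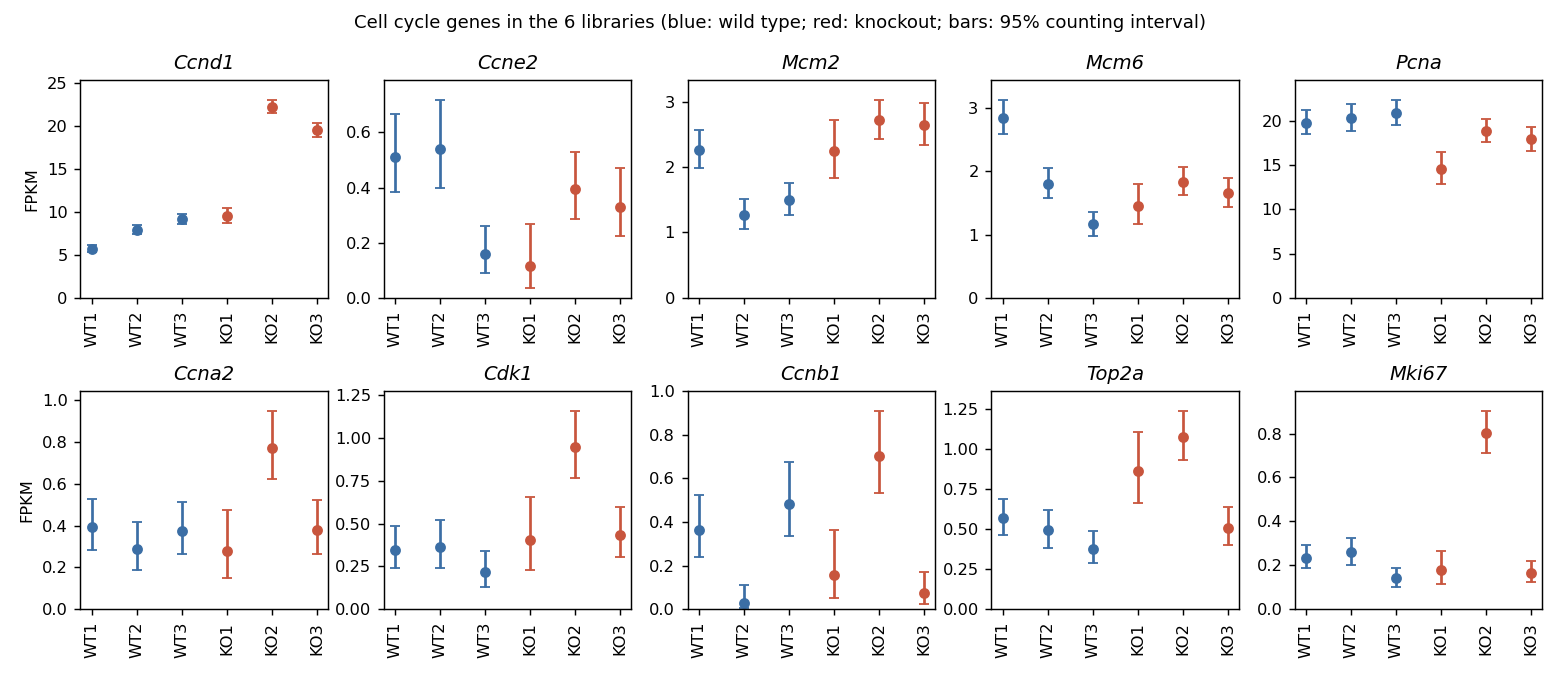
FPKM of the 10 genes (y axes, each from 0) in the 3 wild-type (WT, blue) and 3 knockout (KO, red) libraries, with bars for the exact Poisson 95% interval of the reads. Ccnd1 stands at 9.54 to 22.3 FPKM in the knockout libraries and 5.72 to 9.14 FPKM in wild type, and Mki67 is high in knockout replicate 2 only.

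Ccnd1 (chromosome 7, 144929931 to 144939925, minus strand) encodes cyclin D1, which couples growth signals to entry into the cycle. Wild-type replicates 1 to 3 read 5.72, 7.92 and 9.14 FPKM, and knockout replicates 1 to 3 read 9.54, 22.3 and 19.6 FPKM. All 3 knockout libraries were above all wild-type libraries, but knockout replicate 1 lay close to wild-type replicate 3, with overlapping counting intervals (8.73 to 10.4 and 8.60 to 9.70 FPKM). The means were 7.59 ± 1.73 and 17.1 ± 6.70 FPKM (SD, n = 3 each), a ratio of 2.25. The log2 fold change was 1.02 ± 0.294 (SE; 95% interval 0.33 to 1.70), with a limma adjusted p of 0.0813, an unadjusted p of 0.00907 and an exact permutation p of 0.1, the smallest that 3 against 3 libraries allow. With voom on the recovered reads, which numbered 514 to 3023 per library, the fold was 2.25 (95% interval 1.44 to 3.53; voom adjusted p = 0.0408). The limma log2 fold change was 1.37 without knockout replicate 1 (adjusted p = 0.01455) and 0.80 without knockout replicate 2 (adjusted p = 0.2335). Ccnd1 and Mki67 lie on the chromosome of Arrb1, 45.3 and 36.1 Mb from it. Markers of macrophages that derive from monocytes were also higher in the knockout, with 10 of 12 above wild type in every knockout library (19.9% of all genes). Limma called 3 of 12 hepatocyte markers lower (25%, against 1.6% of all genes tested), while 3 others had positive log2 fold changes. The part of these cells in the Ccnd1 difference was not tested.

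Ccne2 (chromosome 4, 11191351 to 11204779, plus strand) encodes cyclin E2, a partner of CDK2 at the start of S phase. It read 0.511, 0.541 and 0.159 FPKM in the wild-type libraries, and 0.1155, 0.394 and 0.330 FPKM in those of the knockout. The groups overlapped, and the spread within wild type was wider than the difference between the group means, since wild-type replicate 3 rested on 15 reads against 53 and 47 in the other two. The voom fold was 0.823 (95% interval 0.324 to 2.09; adjusted p = 0.825), an interval that holds both a 2-fold rise and a 2-fold fall, and without knockout replicate 2 the ratio of the means was 0.552.

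Mcm2 and Mcm6 encode subunits of the helicase that is loaded at replication origins. Mcm2 (chromosome 6, 88883474 to 88898780, minus strand) read 2.26, 1.265 and 1.50 FPKM in the wild-type libraries, and 2.24, 2.72 and 2.64 FPKM in those of the knockout. Wild-type replicate 1 overlapped the knockout libraries, which sat close together. The means were 1.675 ± 0.5215 and 2.53 ± 0.257 FPKM (SD, n = 3 each), with a log2 fold change of 0.42 ± 0.153 (SE; 95% interval 0.06 to 0.77; limma adjusted p = 0.143, exact permutation p = 0.2). Without wild-type replicate 1 the log2 fold change was 0.57 (limma adjusted p = 0.0809), and without knockout replicate 2 it was 0.38 (limma adjusted p = 0.325).

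Mcm6 (chromosome 1, 128331590 to 128359664, minus strand) had no such offset. It read 2.85, 1.80 and 1.16 FPKM in the wild-type libraries, and 1.46, 1.84 and 1.66 FPKM in those of the knockout. The wild-type libraries spanned the knockout ones on both sides. The log2 fold change was -0.11 ± 0.203 (SE; 95% interval -0.58 to 0.36; limma adjusted p = 0.774), and it turned to 0.11 without wild-type replicate 1 and was -0.16 without knockout replicate 2. That library held the most Mcm2 and Mcm6 of the 3 wild-type libraries.

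Pcna (chromosome 2, 132249162 to 132253314, minus strand) encodes the sliding clamp of the replicative polymerases, which also serves DNA repair. It was the only member whose knockout libraries all lay below wild type, at 14.55, 18.8 and 17.9 FPKM against 19.75, 20.3 and 20.9 FPKM. The wild-type mean was 20.3 ± 0.562 FPKM and the knockout mean 17.1 ± 2.24 FPKM (SD, n = 3 each). The log2 fold change was -0.24 ± 0.107 (SE; 95% interval -0.49 to 0.00400; limma adjusted p = 0.2035, exact permutation p = 0.1). Without knockout replicate 2 it was -0.31 (limma adjusted p = 0.219). The direction held under each scaling, from -0.20 on the TPM scale to -0.34 after median-of-ratios scaling (limma adjusted p = 0.0688). Ccnd1 and Mcm2 had positive log2 fold changes under each scaling. Whether Pcna differs from them in its response was not tested.

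**Figure D2:**
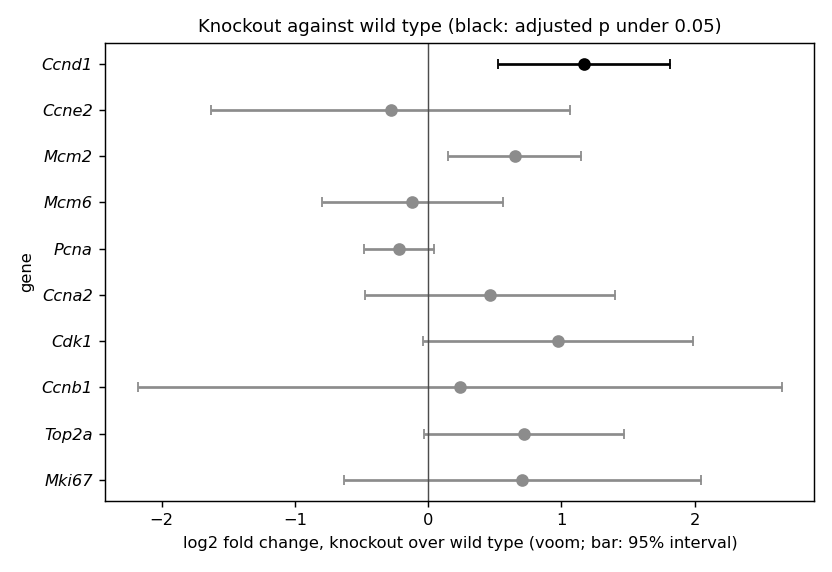
Log2 fold change of each gene, knockout over wild type, from voom on the recovered reads (x axis; points with 95% intervals; genes on the y axis). Ccnd1, in black, is the one gene with an adjusted p under 0.05 (0.0408), and the intervals of the 6 genes below 1 FPKM all hold 0.

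The remaining members act from S phase to mitosis and were all low. Ccna2 encodes cyclin A2, Cdk1 the mitotic kinase, Ccnb1 its partner cyclin B1, Top2a the topoisomerase that untangles chromosomes, and Mki67 the protein Ki-67 that coats mitotic chromosomes and serves as the usual stain for dividing cells. Transcription of such genes is known to depend on CCAAT boxes and on the cell cycle homology region (CHR), through which the DREAM and MuvB complexes act, and that of replication genes on E2F sites. The promoter windows of 5 members are printed to show these letters in genes that were highest in knockout replicate 2 (Mki67, Top2a, Cdk1 and Ccnb1) and in Mcm6, which was not. They are RefSeq windows on GRCm38.p6, from 250 bases before to 50 bases after the gene start, all on the minus strand, at chr7:135716330-135716629, chr11:99024140-99024439, chr10:69352863-69353162, chr13:100786437-100786736 and chr1:128359656-128359955, with matches on either strand in capitals. 7 of the 10 members matched the RefSeq table.
Mki67: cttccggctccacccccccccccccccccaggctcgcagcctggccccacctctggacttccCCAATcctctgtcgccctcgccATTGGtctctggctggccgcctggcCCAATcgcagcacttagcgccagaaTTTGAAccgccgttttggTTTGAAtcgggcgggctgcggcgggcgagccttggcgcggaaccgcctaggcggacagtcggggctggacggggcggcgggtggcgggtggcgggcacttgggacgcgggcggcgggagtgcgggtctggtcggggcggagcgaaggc
Top2a: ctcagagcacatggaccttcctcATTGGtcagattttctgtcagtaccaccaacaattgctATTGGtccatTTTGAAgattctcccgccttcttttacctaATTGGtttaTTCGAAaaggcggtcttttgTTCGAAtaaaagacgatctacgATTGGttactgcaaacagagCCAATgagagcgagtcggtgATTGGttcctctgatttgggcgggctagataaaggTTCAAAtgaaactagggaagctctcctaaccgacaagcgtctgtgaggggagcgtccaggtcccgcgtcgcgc
Cdk1: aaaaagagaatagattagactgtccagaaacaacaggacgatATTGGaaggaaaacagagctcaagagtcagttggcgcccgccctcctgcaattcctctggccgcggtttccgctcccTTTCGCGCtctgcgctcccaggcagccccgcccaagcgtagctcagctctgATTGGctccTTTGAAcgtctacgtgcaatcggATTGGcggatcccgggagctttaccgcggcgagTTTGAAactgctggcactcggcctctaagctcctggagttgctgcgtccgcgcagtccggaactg
Ccnb1: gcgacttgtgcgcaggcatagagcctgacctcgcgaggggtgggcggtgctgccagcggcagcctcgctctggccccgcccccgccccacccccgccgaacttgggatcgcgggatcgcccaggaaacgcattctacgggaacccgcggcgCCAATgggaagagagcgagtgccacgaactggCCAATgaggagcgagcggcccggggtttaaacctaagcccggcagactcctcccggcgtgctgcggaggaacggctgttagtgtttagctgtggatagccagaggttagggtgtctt
Mcm6: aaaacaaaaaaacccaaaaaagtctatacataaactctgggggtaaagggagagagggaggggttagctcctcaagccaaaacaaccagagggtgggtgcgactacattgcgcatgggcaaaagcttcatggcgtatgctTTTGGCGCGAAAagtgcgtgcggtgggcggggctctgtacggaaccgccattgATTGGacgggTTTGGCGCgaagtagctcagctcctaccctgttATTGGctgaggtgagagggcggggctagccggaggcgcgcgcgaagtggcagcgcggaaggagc
The capitals mark CCAAT, the CHR letters TTTGAA or TTCGAA, and the E2F letters TTTCCCGC, TTTGGCGC, TTTCGCGC or TTTGCCGC. CCAAT was in 7 of the 7 member windows and in 37.4% of all 32851 windows of the same length. The CHR letters were in 4 of 7 (Mki67, Top2a, Cdk1 and Mcm2) and in 19.2% of all windows, and the E2F letters in 2 of 7 (Cdk1 and Mcm6) and in 2.27%. Top2a held 6 CCAAT and 4 CHR matches, Mki67 3 and 2, and Cdk1 3 and 2 with 1 E2F match. Ccnb1 held 2 CCAAT matches and no match to the other letters in this window, and Mcm6 held 2 CCAAT and 3 E2F matches, 2 of which overlap. A match is a description of the letters only.

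Mki67 (chromosome 7, 135689784 to 135716361) read 0.235, 0.260 and 0.141 FPKM in the wild-type libraries, and 0.178, 0.804 and 0.167 FPKM in those of the knockout. Knockout replicate 2 was high and the other knockout libraries lay within the wild-type range. Its 284 reads gave a counting interval of 0.713 to 0.903 FPKM, above the upper bound of every other library (at most 0.326 FPKM). The voom fold was 1.63 (95% interval 0.647 to 4.12; adjusted p = 0.525). Without knockout replicate 2 the knockout mean was 0.173 FPKM against 0.212 ± 0.0628 FPKM (SD, n = 3) in wild type.

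Cdk1 (chromosome 10, 69335146 to 69352938) read 0.346, 0.363 and 0.219 FPKM in the wild-type libraries, and 0.402, 0.9475 and 0.431 FPKM in those of the knockout. The groups did not overlap, but knockout replicates 1 and 3, with 16 and 36 reads, had counting intervals that overlapped those of wild type. The voom fold was 1.97 (95% interval 0.974 to 3.97; adjusted p = 0.23; exact permutation p = 0.1). Without knockout replicate 2 the ratio of the means was 1.35.

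Top2a (chromosome 11, 98992943 to 99024189) read 0.568, 0.493 and 0.3785 FPKM in the wild-type libraries, and 0.866, 1.08 and 0.511 FPKM in those of the knockout. Knockout replicates 1 and 2 were above all wild-type libraries and knockout replicate 3 was among them. The voom fold was 1.65 (95% interval 0.978 to 2.77; adjusted p = 0.233; exact permutation p = 0.2). Without knockout replicate 2 the ratio of the means was 1.43.

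Ccna2 (chromosome 3, 36564865 to 36572150) read 0.393, 0.288 and 0.373 FPKM in the wild-type libraries, and 0.278, 0.772 and 0.377 FPKM in those of the knockout. As for Mki67, knockout replicate 2 was high and the other knockout libraries were near wild type. The voom fold was 1.38 (95% interval 0.719 to 2.65; adjusted p = 0.557), and without knockout replicate 2 the ratio of the means was 0.933.

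Ccnb1 (chromosome 13, 100778650 to 100786570) varied most between libraries of 1 group. It was at 0.363, 0.0309 and 0.484 FPKM in wild type, from 28, 2 and 34 reads, and at 0.155, 0.702 and 0.0740 FPKM in knockout, from 5, 57 and 5 reads. The groups overlapped over most of their range. The voom fold was 1.18 (95% interval 0.221 to 6.31; adjusted p = 0.923), and the sign of its log2 difference, 0.00598 on the log2(FPKM + 1) scale, turned to -0.02 after median-of-ratios scaling. Without knockout replicate 2 the ratio of the means was 0.392.

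**Figure D3:**
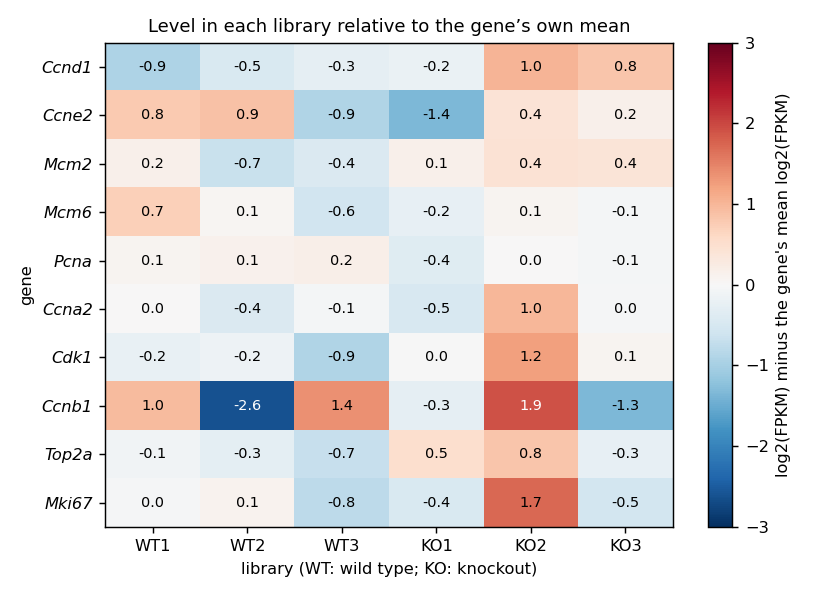
Log2(FPKM) of each gene (rows) in each library (columns) minus the mean log2(FPKM) of the gene over the 6 libraries, without a pseudocount. Knockout replicate 2 is positive for Ccna2, Cdk1, Ccnb1, Top2a and Mki67. It is also positive for Ccnd1 (1.02), Mcm2 (0.42) and Ccne2 (0.42), while Pcna and Mcm6 stay near 0 in it.

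Knockout replicate 2 was the highest of the 6 libraries for 7 of the 10 members, namely Mki67, Top2a, Cdk1, Ccna2, Ccnb1, Ccnd1 and Mcm2. Of the 15110 genes that averaged 0.1 FPKM or more, 33.1% were highest in that library, which was also the deepest. Its level over the mean of the other 5 libraries was 4.10 for Mki67, 3.17 for Ccnb1, 2.69 for Cdk1, 2.26 for Ccna2, 2.145 for Ccnd1 and 1.92 for Top2a, and it was 1.37 for Mcm2, 1.19 for Ccne2, 1.03 for Mcm6 and 1.01 for Pcna. The median over all genes was 1.10. For 4 members, Mki67, Cdk1, Ccna2 and Ccnd1, the counting interval in knockout replicate 2 lay above those of all other libraries. These intervals cover counting error only. The share of all genes with such an interval was not computed, so 4 of 10 cannot be read as particular to the members. Knockout replicate 2 was singled out after its values were seen.

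Other genes of the cycle were counted in lists that do not hold the 10 members. Of 44 genes of G2 and mitosis, 36 averaged 0.1 FPKM or more, and 26 of these (72.2%) were highest in knockout replicate 2, with a median level of 1.97 times the mean of the other libraries. Among the 4477 genes with a mean of 0.1 to 1 FPKM, 30.9% were highest there and the median was 1.19. The ratio ran from 0.935 for Pttg1 (securin) to 6.27 for Nuf2 (a kinetochore subunit), and it was 4.38 for Birc5 (survivin), 4.04 for Ube2c (a ubiquitin-conjugating enzyme of the anaphase-promoting complex) and 3.90 for the mitotic kinase gene Plk1, 5 genes named after their values were seen. The most abundant genes of this list were highest in other libraries. Cks2, a CDK-binding subunit, was at 7.37 to 10.9 FPKM in wild type and 5.83 to 8.43 FPKM in knockout, and Ccnf, the gene of cyclin F, at 8.30 to 10.8 and 9.60 to 12.6 FPKM. Between the groups, 0 of the 9 tested genes of the list were called by limma (1 at an unadjusted p under 0.05) and 0 of 36 by voom. The median log2 fold change of those 9 was 0.03, against 0.07 over all genes tested, and was -0.01 over 8 genes without knockout replicate 2. Over the 36 genes, most of them below 1 FPKM, the median voom log2 fold change was 0.44, against 0.11 over all genes tested by voom. The knockout mean was above the wild-type mean for 32 of the 36, and for 9394 of 15058 over all genes that averaged 0.1 FPKM or more. The median ratio of means was 1.35, against 1.07 over those 15058 genes. With knockout replicate 2 left out, the knockout mean was above for 19 of 36 (8531 of 15058), with a median ratio of 1.03 (1.04 over the 15058).

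Replication genes were counted in the same way. Of 40 genes of replication and S phase that averaged 0.1 FPKM or more, 8 (20%) were highest there, with a median ratio of 1.06. Limma called 0 of the 32 tested (7 at an unadjusted p under 0.05) and voom 0 of 40, and the median log2 fold change was -0.02. Rfc2, a clamp loader subunit, was at 12.8 to 18.9 FPKM in wild type and 15.8 to 16.8 FPKM in knockout, and Rpa1, which binds single-stranded DNA, at 10.6 to 13.4 and 13.0 to 13.4 FPKM. Single genes lay apart without passing the test, in both directions, and 2 were named after their values were seen. Fen1, a flap endonuclease, was at 1.80 to 1.96 FPKM in wild type and 2.51 to 3.31 FPKM in knockout (limma adjusted p = 0.0522), and the helicase subunit gene Gins1 at 2.87 to 3.13 and 1.06 to 2.18 FPKM (limma adjusted p = 0.0774).

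**Figure D4:**
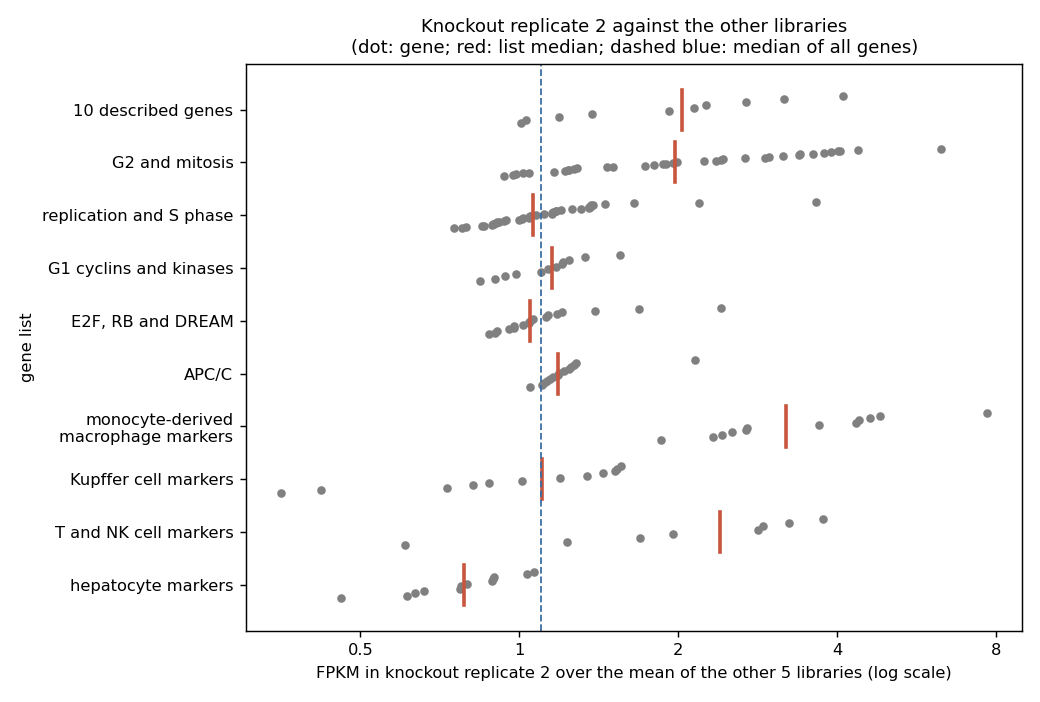
FPKM in knockout replicate 2 divided by the mean of the other 5 libraries (x axis, log scale) for each gene that averaged 0.1 FPKM or more (dots), by list (y axis), with list medians in red and the median of all genes dashed. The medians of the G2 and mitosis list (1.97), of the T and NK cell markers (2.39) and of the monocyte-derived macrophage markers (3.19) lie right of that of all genes (1.10), and that of the hepatocyte markers (0.785) lies left of it.

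Few of the kinases and regulators that act on the members were called. Of 10 tested G1 cyclins and kinases 0 were called (2 at an unadjusted p under 0.05; voom 0 of 12 at the filter of 0.1 FPKM and 1 at that of 1 FPKM; median log2 fold change 0.08). That 1 was Cdc25a, the gene of a phosphatase that activates CDKs (voom log2 fold change 0.73, adjusted p = 0.0437), named after its values were seen. Cdk4, the kinase partner of cyclin D1, was at 14.5 to 18.6 FPKM in wild type and 19.0 to 20.1 FPKM in knockout (limma adjusted p = 0.274), and Ccnd3, the gene of cyclin D3, at 18.8 to 20.1 and 15.1 to 21.7 FPKM (limma adjusted p = 0.518). Of 14 tested E2F, RB and DREAM genes 0 were called (1 at an unadjusted p under 0.05; voom 0 of 18; median 0.03). Rbbp4 was the most abundant of these, with 15.5 to 18.2 FPKM in wild type and 12.2 to 15.75 FPKM in knockout, followed by Rbl2, the gene of the pocket protein p130, at 8.03 to 9.34 and 9.24 to 10.1 FPKM. Of 12 tested genes of the anaphase-promoting complex 0 were called (1 at an unadjusted p under 0.05; voom 0 of 14; median 0.09), and its subunit gene Anapc5 was at 23.8 to 29.7 and 24.9 to 30.1 FPKM. Anapc13 was at 24.2 to 30.8 and 16.1 to 26.5 FPKM. Without knockout replicate 2, limma called 0 genes of these 3 lists, with medians of 0.03, 0.00668 and 0.00965.

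Of 13 tested genes that restrain the cycle, 1 was called (7.69%, near the 5.3% of all genes tested that were called higher), Ccng1, the gene of cyclin G1, which rose. It went from 11.0 to 13.2 FPKM in the wild-type libraries to 20.2 to 23.9 FPKM in the knockout libraries, with no overlap and a log2 fold change of 0.77 (limma adjusted p = 0.00959). The median log2 fold change of the list was -0.02. Tob1, an antiproliferative gene, was at 48.4 to 60.6 and 44.6 to 62.3 FPKM. Gadd45g, a growth arrest gene, ran from 22.0 to 66.4 FPKM in wild type and from 5.52 to 92.6 FPKM in knockout, a spread wider than the difference between the groups. Voom called 2 of 16 higher (12.5%, against 5.68% of all genes), Ccng1 and Cdkn1a, the gene of the CDK inhibitor p21, and at the filter of 1 FPKM it called 1 of them, Ccng1. Cdkn1a read 11.9, 15.2 and 36.0 FPKM in the wild-type libraries, and 33.5, 57.0 and 61.1 FPKM in those of the knockout, where wild-type replicate 3 overlapped the knockout group (limma adjusted p = 0.0837; voom adjusted p = 0.0454). Cdkn1a was named after its values were seen.

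Among 14 tested genes of growth signals that act on hepatocytes, 3 were called higher and 1 lower (21.4% and 7.14%, against 5.3% and 1.6% of all genes tested), with a median log2 fold change of 0.22 against 0.07. Voom called 4 of 17 higher and 1 lower (23.5% and 5.88%, against 5.68% and 1.42% of all genes), with a median of 0.39. The 4 were those 3 and Tgfb1, the gene of the cytokine TGF-beta 1 (voom adjusted p = 0.042, named after its values were seen). Limma without knockout replicate 2 called 1 of the 14 higher and 0 lower, with a median of 0.13. That fit also called fewer of all genes, 94 of 10558 higher and 63 lower, against 564 and 170 of 10633 with all libraries. Egfr, the epidermal growth factor receptor that drives hepatocyte proliferation, fell from 69.6 to 84.6 FPKM in wild type to 45.0 to 48.4 FPKM in knockout, with no overlap and a log2 fold change of -0.67 (limma adjusted p = 0.0133). Ctgf, a matrix-associated growth factor gene and a known YAP target, rose from 3.94 to 4.98 FPKM to 8.29 to 11.2 FPKM (log2 fold change 1.02; limma adjusted p = 0.00778). Tgfbr2, a receptor of the growth-inhibiting cytokine TGF-beta, rose from 6.75 to 7.15 FPKM to 9.49 to 13.2 FPKM (log2 fold change 0.64; limma adjusted p = 0.0241). Wwtr1, the gene of the YAP paralog TAZ, rose from 5.11 to 6.57 FPKM to 8.07 to 9.69 FPKM (log2 fold change 0.60, limma adjusted p = 0.0270). With any 1 library left out, Ccng1 and Ctgf were called in 6 of 6 fits (limma adjusted p at most 0.0431 and 0.0385). The call of Egfr was lost without knockout replicate 2 (limma adjusted p = 0.0587), where its log2 fold change was -0.66 against -0.67 with all libraries. That of Tgfbr2 was made in 1 of 6 such fits, without knockout replicate 1, where leaving out each of the other 5 libraries ended it (limma adjusted p up to 0.0905) with log2 fold changes of 0.54 to 0.66, against 0.64 with all. That of Wwtr1 was made in 2 of 6, those that dropped replicate 1 of either group, and the other libraries each ended it (limma adjusted p up to 0.104) with log2 fold changes of 0.53 to 0.57, against 0.60 with all.

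Markers of other cells moved with the knockout group and with knockout replicate 2. Of 12 markers of macrophages that derive from monocytes, 12 were highest in that library, and their summed level was 363 FPKM there, 158 and 191 FPKM in knockout replicates 1 and 3, and 99.1 to 139 FPKM in wild type. Lyz2, a lysozyme gene, was at 183 FPKM in it against 56.7 to 88.5 FPKM elsewhere, and Spp1, which cholangiocytes also express, at 89.0 against 23.2 to 53.3 FPKM. The other 10 markers summed to 91.1 FPKM in it, 40.8 and 54.4 FPKM in knockout replicates 1 and 3, and 19.2 to 28.7 FPKM in wild type, without overlap of the groups. Between the groups, 10 of the 12 were above wild type in every knockout library. Limma called 4 of the 9 tested higher (44.4%, against 5.3% of all genes tested), Clec7a, Gpnmb, Lgals3 and Mmp12, and 0 lower. Voom called 6 of 12 higher (50%, against 5.68% of all genes), also Ccr2 and Cd9. Limma without knockout replicate 2 called 3 of 8 higher (Clec7a, Gpnmb and Mmp12), in a fit that called 94 of 10558 genes higher. Gpnmb, a glycoprotein gene of lipid-laden macrophages, rose from 0.126 to 0.174 FPKM in the wild-type libraries to 2.42 to 9.66 FPKM in those of the knockout (limma adjusted p = 0.0177). These 6 genes were named after their values were seen. The median ratio of means was 2.78 over the 12 markers, and 2.002 without knockout replicate 2. The 12 T and NK cell markers summed to 5.36 FPKM in it and to 2.09 to 3.01 FPKM elsewhere, with Cd2 and Trac listed at 0 in all libraries. Of the 8 that averaged 0.1 FPKM or more, 7 had a knockout mean above the wild-type mean (9394 of 15058 over all genes). The median ratio of means was 1.46 (1.07 over all genes). Without knockout replicate 2 it was 1.07, with 5 of 8 above (1.04 and 8531 of 15058 over all genes). Cd8a and Nkg7 lay above wild type in every knockout library and 1 marker below (19.9% and 7.31% of all genes). Voom called 0 of these 8 higher and 1 lower (12.5%, against 1.42% of all genes), Cd4. It was at 0.714 to 1.11 FPKM in wild type and 0.202 to 0.4175 FPKM in knockout (voom adjusted p = 0.0412, named after its values were seen). The 8 B and plasma cell markers summed to 5.18 FPKM in knockout replicate 2, to 4.21 FPKM in wild-type replicate 3 and to 0.940 to 2.06 FPKM elsewhere, with Ighm listed at 0 in all. The 12 Kupffer cell markers summed to 428 FPKM in it and 333 to 364 FPKM elsewhere, and 6 of them were highest in it. Clec4f, Vsig4, Timd4 and Cd163 were lowest in it, at 44.3, 14.8, 1.27 and 2.88 FPKM. Between the groups, 3 of the 12 lay above wild type in every knockout library and 3 below (19.9% and 7.31% of all genes). Limma called 0 higher and 1 lower (8.33%, against 1.6% of all genes tested), Vsig4 (limma adjusted p = 0.04355). The Kupffer cell genes were named after their values were seen. The 12 hepatocyte markers summed to 53523 FPKM in knockout replicate 2, the lowest of the 6 libraries, against 57195 to 66960 FPKM elsewhere. Of the 12, 3 were called lower by limma (25%, against 1.6% of all genes tested), namely Cps1, Serpina1a and Tat, named after their values were seen. Cps1 was also called without knockout replicate 2. The part of these cells in the higher mitotic genes of that library was not tested.

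**Figure D5:**
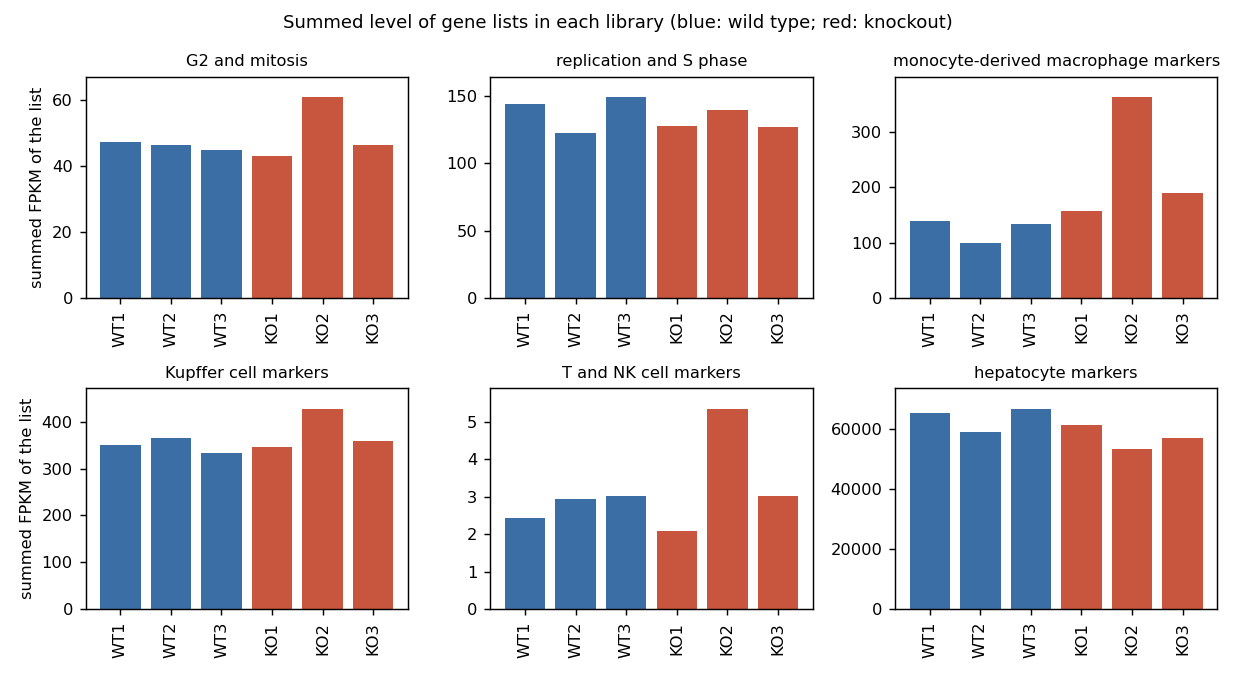
Summed FPKM (y axes, from 0) of 6 gene lists in the 3 wild-type (WT, blue) and 3 knockout (KO, red) libraries. Knockout replicate 2 is highest for the G2 and mitosis list (60.9 FPKM against 42.9 to 47.3 FPKM), the monocyte-derived macrophage, Kupffer cell and T and NK cell markers, and lowest for the hepatocyte markers.

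Stellate cell markers summed to 188 FPKM in it and 126 to 148.7 FPKM elsewhere, endothelial markers to 130 FPKM in it and 102 to 129.7 FPKM elsewhere. Of the 10 endothelial markers, 6 lay above wild type in every knockout library (19.9% of all genes) and 0 below. Limma called 2 higher (20%, against 5.3% of all genes tested) and 0 lower, Lyve1 and Pecam1, named after their values were seen. Lyve1 was at 3.18 to 3.95 FPKM in wild type and 9.23 to 9.90 FPKM in knockout (limma adjusted p = 0.00176, and 0.0128 without knockout replicate 2). Pecam1 had a limma adjusted p of 0.0487. Cholangiocyte markers summed to 105 FPKM in knockout replicate 2, of which Spp1 gave 89.0 FPKM, and to 36.0 to 68.3 FPKM elsewhere. Neutrophil markers summed to 2.64 to 6.70 FPKM over the 6 libraries, with Mpo listed at 0 in all, and erythroid markers to 59.0 to 127 FPKM, both with their highest value in wild-type replicate 2. The erythroid sum was lowest in knockout replicates 1 and 3, at 60.4 and 59.0 FPKM. Limma called 0 of the 4 tested erythroid markers. Without knockout replicate 2 it called 2 of 4 lower (63 of 10558 over all genes). These were Hbb-bs and Hbb-bt (limma adjusted p = 0.03135 and 0.03264), named after their values were seen.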

How the data were processed

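RNA-seq libraries with liver as the labelled source, 3 wild type and 3 ARRB1 knockout, were compared. Illumina TruSeq libraries were made from 1 ug of Trizol-extracted total RNA, per the labels' protocols. The values are FPKM deposited by the authors, 1 per gene symbol and library. Per the submitters' processing notes, Bowtie 0.12.2, HISAT2 and the builds mm8 and mm10 were named. The sources used here do not give their roles, the annotation, the strand setting or how reads with several matches were counted. Gene positions are those of GENCODE vM21 on GRCm38 and are not part of the deposited values.

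FPKM of 1 gene and library move in steps of 1 read. These steps gave whole reads for 17548 of 17549 genes detected in 4 or more libraries, within 0.001 reads (more for high counts), and a whole implied gene length for 99.65% of them. In a simulation, 99.1% of 16793 genes gave back their exact reads. Totals were set from genes with 1 annotated transcript.

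Limma 3.58.1 in R 4.3.3 (lmFit, eBayes with trend, two-sided) was run on log2(FPKM + 1) for 10633 genes that averaged 1 FPKM or more, with Benjamini-Hochberg adjustment over them. Fold changes on this scale understate the change of low genes. On simulated reads for knockout against wild type, 67% of the 2-fold and 98.9% of the 4-fold changes were found among 10506 genes, and 9 of 167 calls were unchanged genes. Limma's voom on the recovered reads with a filter at 0.1 FPKM was added after seeing the data, because 6 of the 10 members lay below 1 FPKM. Counting intervals are exact Poisson intervals at 95% and cover counting error only. The alternatives were a pseudocount of 0.1, filters at 0, 0.1 and 5 FPKM, TPM, median-of-ratios and quantile scaling, robust estimation, voom, the replicate number as a block and each library left out. The labels define replicates no further, so p-values reflect only how these libraries vary, which may be technical.

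The members and lists were chosen with earlier results of these data known. All 10 members are named, with up to 4 called genes of each cycle list or, under 2 calls, its 2 most abundant genes, and the 2 most abundant marker genes of cell lists where described. The markers Alb, Cd5l, Dcn, Lyz2 and Spp1 come from those lists. Python 3.11.15, pandas 2.3.3, scipy 1.17.1 and matplotlib 3.10.9 were used.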

Additional observations from a re-analysis of the deposited data

How the results depend on the processing

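The calls among the members changed under few alternatives. The count of members called higher, 0 as reported, was 1 (Ccnd1) with voom at either filter and from 0 to 1 with 1 library left out, the call being made without knockout replicate 1. The count of members called lower was 0 under each alternative run. The log2 fold change of Mcm6 lay between -0.31 and 0.11 with 1 library left out, and its sign turned without wild-type replicate 1. The labels do not say whether the replicate numbers pair the libraries. Deviations from the group means correlated at 0.17, -0.0625 and 0.0966 for same-numbered libraries and at -0.243 to 0.125 for the others. With 3 libraries per group these correlations cannot settle whether libraries were paired. With the replicate block, 1 member was called higher (Ccnd1, limma adjusted p = 0.0238), and over all genes 280 were called higher and 122 lower.

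Over all genes, 564 were called higher and 170 lower. The higher count was 990 on the TPM scale, 371 with quantile normalization, 346 with median-of-ratios scaling and 88 without a filter, and from 94 to 422 with 1 library left out, lowest without knockout replicate 2. The lower count was 58 with no filter and from 54 to 119 with 1 library left out. The share of calls that were higher was 76.8% as reported, 85.2% for TPM, 64.5% for quantile normalization and 59.9% for median-of-ratios scaling. The median log2 fold change of all tested genes moved from 0.07 to 0.13, -0.00608 and -0.01 in these.

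Of the genes of the 7 cycle lists, 4 were called higher and 1 lower. The higher count was 2 with no filter and 7 on the TPM scale, and the lower count was 3 with quantile normalization and 2 with median-of-ratios scaling. With 1 library left out the counts ran from 2 to 5 for higher and from 0 to 1 for lower calls. The 6 members below 1 FPKM rested on 2 to 284 reads per library, which sets their counting intervals, such as 0.0504 to 0.362 FPKM for Ccnb1 from 5 reads in knockout replicate 1, the shallowest library. The 2 reads of Ccnb1 in wild-type replicate 2 gave an upper bound of 0.112 FPKM, below the lower bounds of the other wild-type libraries (0.241 and 0.336 FPKM). The cause of these changes was not tested.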
